A study of Mus musculus with 12 samples.

Results

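Ccl2, Ccl3, Ccl4, Ccl5, Ccl7, Cxcl1, Cxcl2 and Cxcl3 are a listed set of inflammatory CC and CXC chemokines that attract monocytes and neutrophils. The set was taken by gene symbol. It leaves out others of these classes, such as Ccl12, which are given below as other chemokines. Its members make up 8 of the 19938 mouse genes with a row of their own among the 35556 rows of the deposited array table, and each has 1 row. Their levels were followed in RM, the resident macrophages of the cecum, and in its CD11b+ dendritic cells (DC), with and without the transcription factor Runx3.

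Chemokines are small secreted proteins that direct leukocyte migration through receptors coupled to G proteins. Ccl2 and Ccl7 bind Ccr2 and draw monocytes out of the blood, Ccl3, Ccl4 and Ccl5 act on monocytes, macrophages and T cells, and Cxcl1, Cxcl2 and Cxcl3 bind Cxcr2 and attract neutrophils. In the intestine the mononuclear phagocytes are a main source of these signals, and microbial products, through NF-kappaB, are the classical inducers.

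The arrays held RNA of 4 Runx3Δ and 3 WT samples of RM, and of 3 Runx3Δ and 2 WT samples of CD11b+ DC. Runx3Δ mice (Runx3 -/- in the labels) carry floxed Runx3 alleles and a CD11c-Cre transgene, which removes exon 3 in cells that express CD11c, among them both sorted populations. WT mice (Runx3 +/+) were their litter mates, on the C57Bl/6 background, 6 to 8 weeks old, and the sources used here do not say whether they carried floxed alleles or Cre. Each sample was a pool of cells from 3 to 4 mice of both sexes, sorted from the cecum as CD45+, CD11c+, MHCII+, CD11b+ and Ly6c- cells. RM were taken as positive, and DC as negative, for the macrophage surface antigen that the gene Adgre1 encodes.

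All values are log2 array intensities, called log2 levels here, and a log2 difference is a difference between group means. The 4 groups were fitted together with limma, and p-values were adjusted over all 35556 rows. The words rose and fell are kept for genes with an adjusted p under 0.05. Beside this stand the thresholds that the study used, a fold change of at least 1.5 with an unadjusted p of at most 0.05. Precision is limited by how few arrays there are. These are bulk samples, so fewer cells that make a chemokine and less RNA per cell cannot be told apart.

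The labelled cell types fitted their markers. Adgre1, which encodes the antigen used in the sort, had log2 levels of 11.72 to 11.93 in WT RM and 9.65 to 9.81 in WT DC. Zbtb46, a transcription factor of conventional DC, had 5.52 to 5.56 in WT RM and 7.05 to 7.33 in WT DC. The Runx3 row had levels of 9.85 to 10.18 in Runx3Δ RM, against 9.48 to 9.83 in WT RM, and of 9.97 to 10.14 in Runx3Δ DC, against 9.99 to 10.11 in WT DC. That row summarises the transcript as a whole, so it does not check the loss of exon 3. The mean correlation of a sample with its own group lay between 0.981 and 0.990 over all rows. WT RM replicate 1 was the lowest WT RM sample for Ccl2 (8.29, against 10.67 and 9.58) and Ccl7 (9.34, against 11.15 and 10.91). For Ccl5 replicate 2 was the lowest (10.77, against 11.74 and 12). Differences between groups that rest on WT RM replicate 1 are given with and without it.

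Promoter sequence was at hand for 4 of the 8 genes, as 250 bases before each annotated start in RefSeq on mouse GRCm38.p6. It is shown because the neutrophil chemokines share an identical 10-base element. Each sequence runs 5′ to 3′ on the gene's strand and ends at the base before the start, and the capitals mark a motif match.
Cxcl1: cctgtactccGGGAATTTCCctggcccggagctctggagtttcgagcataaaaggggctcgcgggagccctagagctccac
Cxcl2: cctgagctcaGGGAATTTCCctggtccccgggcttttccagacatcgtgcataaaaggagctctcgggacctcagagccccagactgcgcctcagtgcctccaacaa
Cxcl3: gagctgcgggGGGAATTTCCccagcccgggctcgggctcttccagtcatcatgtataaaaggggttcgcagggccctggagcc
Ccl3: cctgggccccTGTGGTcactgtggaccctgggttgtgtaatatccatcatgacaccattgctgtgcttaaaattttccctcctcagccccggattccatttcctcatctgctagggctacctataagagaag
The stretches lie at chr5:90891164-90891244 (Cxcl1, plus strand), chr5:90903792-90903898 (Cxcl2, plus), chr5:90786018-90786100 (Cxcl3, plus) and chr11:83649379-83649510 (Ccl3, minus).

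The capitals in the 3 CXC promoters are matches to an NF-kappaB motif, searched on both strands as the 10 letters shown with any base allowed at the fifth. It began 71 bases before the start of Cxcl1, 97 before that of Cxcl2 and 73 before that of Cxcl3. Of 32851 mouse promoter windows of that length, 117 (0.356%) held it. The 3 genes lie close together on chromosome 5, and no test was made of their matches. The capitals in Ccl3 are a match to the RUNX motif TGTGGT or TGCGGT, 122 bases before the start, which 18.6% of windows held. The AP-1 motif TGANTCA, held by 6.75% of windows, had no match in the 4 windows, and no match overlapped another. A match is a run of letters and not a measured binding site.

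RM had higher levels of the chemokines than CD11b+ DC in both genotypes. In Runx3Δ mice 7 of the 8 genes rose in RM (3.73% of all rows rose), the exception being Ccl5, and in WT mice 5 of 8 did (3.05% of all rows). The median log2 difference of the 8 genes was 1.65 in Runx3Δ mice, against 0.02 over all rows, and 1.39 in WT mice, against 0.00 over all rows. All 8 differences were above 0 in both genotypes, and within litters every RM sample exceeded the DC sample of its own litter for every gene, in 3 litters of Runx3Δ and 2 of WT mice.

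Of the 8 genes, the monocyte attractant Ccl7 differed most between the cell types. Its log2 level was 9.35, 9.79, 10.01 and 10.37 in the Runx3Δ RM samples, against 6.45, 6.16 and 6.67 in Runx3Δ DC. It was 9.34, 11.15 and 10.91 in WT RM, against 7.36 and 7.47 in WT DC. The cell types did not overlap, and the lowest RM sample lay well over the highest DC sample. The log2 difference was 3.45 (SE 0.38, adjusted p = 0.000248, limma), a 10.9-fold change, in Runx3Δ and 3.05 (SE 0.45, adjusted p = 0.00214), an 8.29-fold change, in WT mice. Ccl2, the other Ccr2 ligand of the set, was higher in RM by 2.20 (SE 0.47, adjusted p = 0.0147) in Runx3Δ mice. That call was lost without Runx3Δ DC replicate 1 (adjusted p = 0.0611) or 2 (0.0610) and by the test named in the methods on 4 groups (0.0571). In WT mice its difference of 1.70 (SE 0.56) gave an adjusted p of 0.119, which became 0.0156 with litter as a block (difference 2.06) and 0.00894 without WT RM replicate 1. Over 25 alternative settings the adjusted p lay between 0.00894 and 0.581, and it passed in 5 of them.

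The Cxcr2 ligands of the set stood higher in RM too. Cxcl1 had log2 levels of 10.61, 10.03, 10.26 and 10.31 in Runx3Δ RM, against 8.64, 8.11 and 8.54 in Runx3Δ DC. In WT mice it had 10.43, 10.66 and 10.45 in RM, against 9.18 and 8.63 in DC. No RM sample came near a DC sample, and the log2 difference was 1.87 (SE 0.18, adjusted p = 0.000104) in Runx3Δ and 1.61 (SE 0.21, adjusted p = 0.00101) in WT mice. Cxcl2 rose in RM by 1.38 (adjusted p = 0.000635) in Runx3Δ and by 1.20 (adjusted p = 0.00575) in WT mice. Cxcl3 rose by 1.69 (adjusted p = 0.00110) in Runx3Δ mice, while its difference of 0.65 in WT mice had an adjusted p of 0.258.

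Of the other CC ligands, Ccl4 and Ccl3 rose in RM of both genotypes. Ccl4 did so by 1.61 (adjusted p = 0.00289) in Runx3Δ and 1.58 (adjusted p = 0.0114) in WT mice, and Ccl3 by 1.22 (adjusted p = 0.00815) in Runx3Δ and 1.13 (adjusted p = 0.0382) in WT mice. For Ccl5 the difference was 1.06 (adjusted p = 0.0915) in Runx3Δ and 0.83 (adjusted p = 0.339) in WT mice, and its cell types overlapped in both genotypes. With the test named in the methods on 2 groups the Runx3Δ calls of Ccl3 (adjusted p = 0.0911) and Ccl4 (adjusted p = 0.0659) were lost, and over all alternatives the Runx3Δ count of 7 ranged from 5 to 8. The WT DC group holds 2 samples. Without its replicate 1 the WT count of 5 genes became 3, without its replicate 2 it became 2, and it was 0 with the test named in the methods, run on the 2 groups alone.

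**Figure D1:**
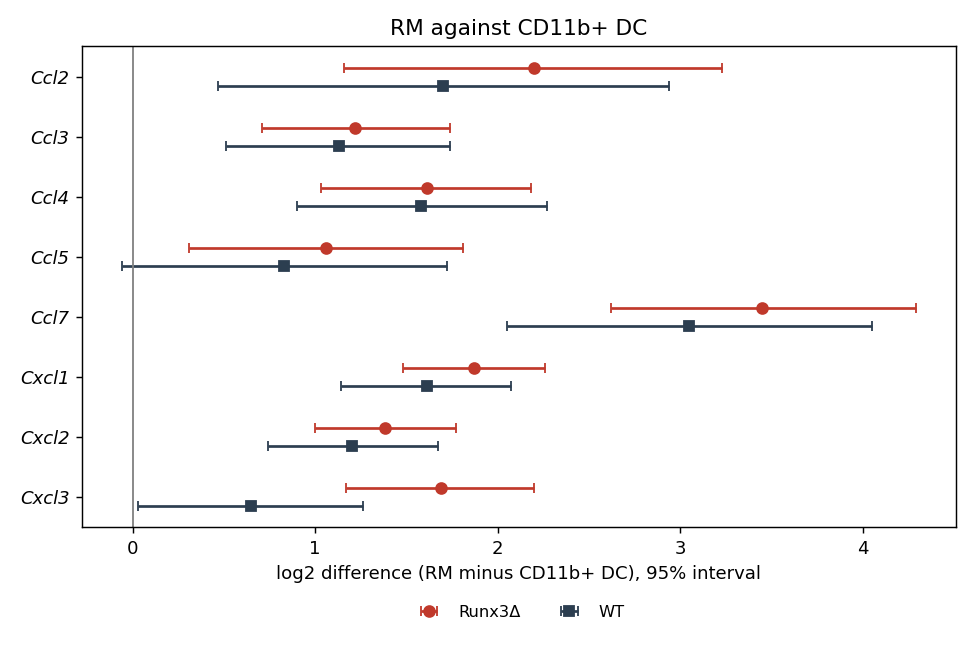
Log2 difference between RM and CD11b+ DC (x axis, RM minus DC) for each chemokine gene (y axis), with its 95% interval, in Runx3Δ mice (circles) and WT mice (squares). All 16 points lie right of 0, Ccl7 farthest at 3.45 in Runx3Δ and 3.05 in WT mice, and the interval of Ccl5 in WT mice, from -0.06 to 1.72, is the one that reaches 0.

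The sorted cells also expressed some of the receptors of these ligands. Of 7 receptors and decoy receptors analysed, 1 rose and 1 fell in RM against DC in Runx3Δ mice (7.85% of all rows changed). Ccr1, a receptor of Ccl3 and Ccl5, was higher in RM by 0.51 (SE 0.13, adjusted p = 0.0382) in Runx3Δ mice, a call lost in 13 of the 25 alternative settings. Cxcr2, the receptor of the 3 CXC ligands, fell by 1.91 (SE 0.41, adjusted p = 0.0151) in Runx3Δ RM against Runx3Δ DC. Its levels were 3.44 to 4.45 in Runx3Δ RM and 4.91 to 7.05 in Runx3Δ DC, with 3.62 to 4.21 in WT RM and 4.50 to 4.66 in WT DC. The RM samples lay under a log2 level of 5, taken here as dim, so the size of this difference is uncertain. It was -1.31 without Runx3Δ DC replicate 1, the highest sample, and the test named in the methods lost the call (adjusted p = 0.172 on 2 groups and 0.0575 on 4). Ccr2, the receptor of Ccl2 and Ccl7, averaged 9.95 ± 0.15 in Runx3Δ RM and 9.35 ± 0.44 in Runx3Δ DC (SD, n = 4 and 3), with a difference of 0.60 (adjusted p = 0.103).

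Between genotypes none of the 8 chemokines passed the adjusted threshold in either cell type. In RM, 7 of 8 differences were below 0, with a median of -0.43 against 0.03 over all rows, of which 43.6% were below 0. In DC all 8 were below 0, with a median of -0.86 against 0.01 over all rows, of which 47.8% were below 0. At the study's thresholds 2 of 8 were lower in Runx3Δ RM (Ccl3 and Ccl4, 0.731% of all rows) and 4 of 8 in Runx3Δ DC (Ccl3, Ccl4, Cxcl2 and Cxcl3, 1.5% of all rows), and none was higher. After adjustment 0 of 8 passed in RM (0.0141% of all rows, or 5 rows) and 0 of 8 in DC (0 rows). At an unadjusted p under 0.05 there were 3 genes in RM (7.96% of all rows) and 5 in DC (6.74%).

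**Figure D2:**
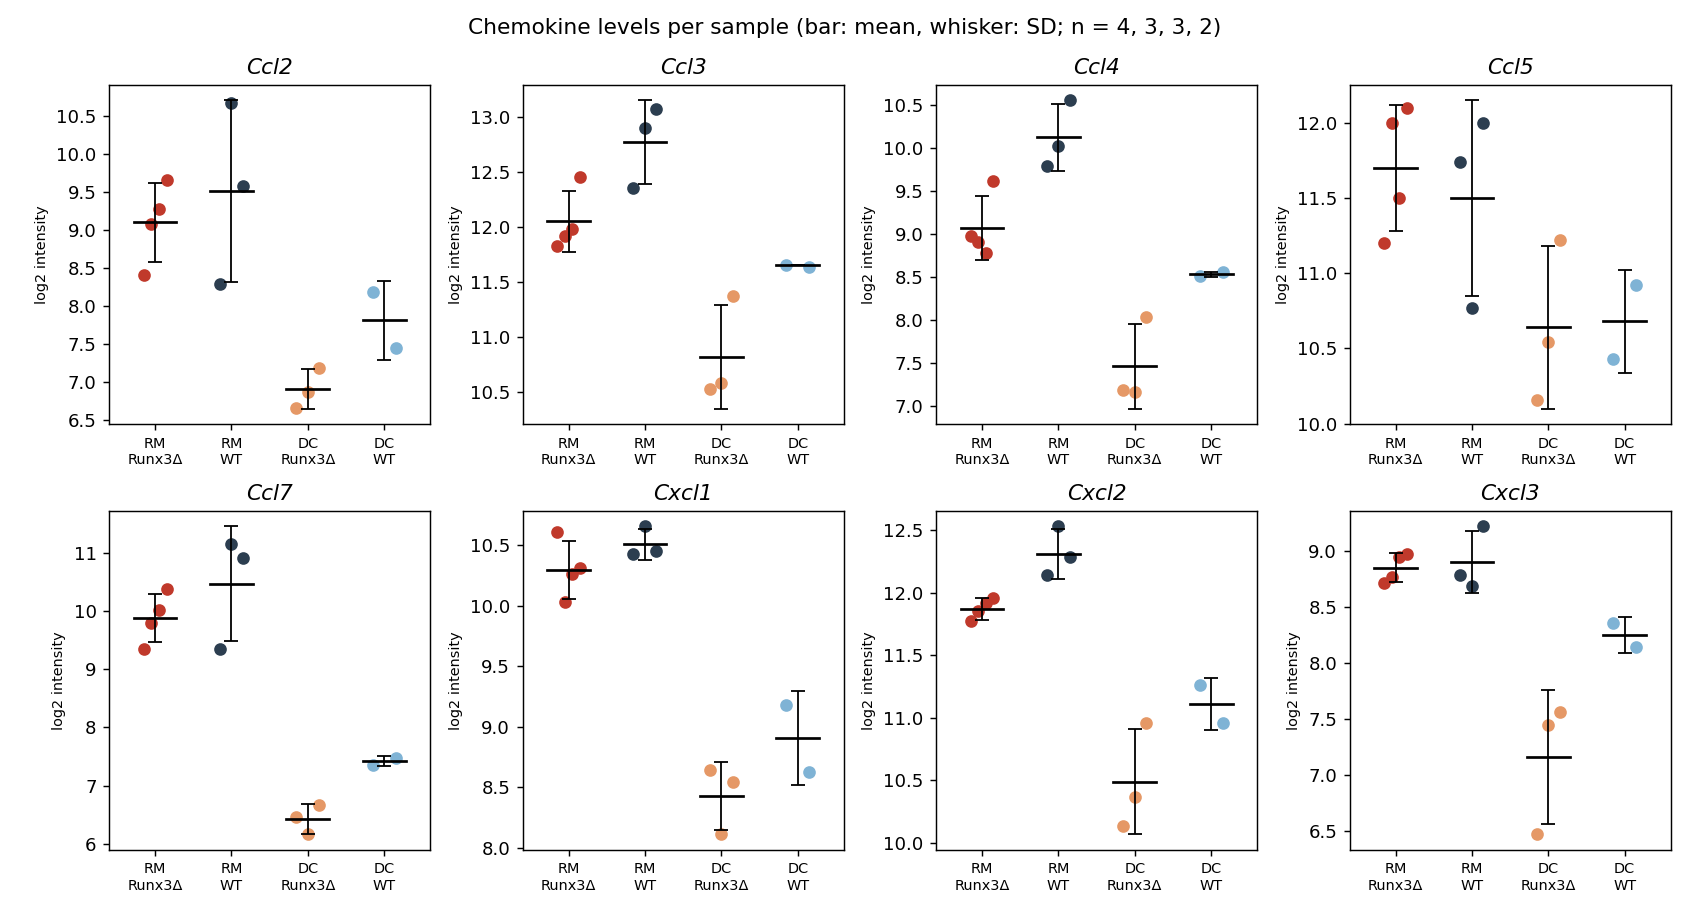
Log2 level (y axis, log2 intensity, a separate scale for each gene) of the 8 chemokine genes in every sample of 4 groups, from left Runx3Δ RM, WT RM, Runx3Δ DC and WT DC, with a bar for the mean and whiskers for the SD. RM lie above DC for each gene except Ccl5, and for Ccl4 the 4 Runx3Δ RM samples, at 8.78 to 9.61, all lie below the 3 WT RM samples, at 9.79 to 10.55.

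Ccl4, which encodes an attractant of monocytes and T cells, was lower in Runx3Δ cells of both types. In RM its log2 level was 8.97, 8.91, 8.78 and 9.61 in the Runx3Δ samples, against 9.79, 10.02 and 10.55 in the WT samples. In DC it was 7.19, 7.16 and 8.03 in Runx3Δ, against 8.51 and 8.56 in WT. Every Runx3Δ sample lay below every WT sample of its cell type, and in each cell type a single Runx3Δ sample, that of litter 4, came close to the WT samples. The log2 difference was -1.05 in RM (SE 0.26, 95% interval -1.62 to -0.48, unadjusted p = 0.00201, adjusted p = 0.283, limma), or 2.07-fold lower. In DC it was -1.08 (SE 0.31, interval -1.76 to -0.39, unadjusted p = 0.00546, adjusted p = 0.503), or 2.11-fold lower. Within litters 1, 2 and 3 the RM difference was -0.82, -1.10 and -1.76, and within litter 3, the only one with DC of both genotypes, the DC difference was -1.40.

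Ccl3, a ligand of Ccr1, had much the same profile. Its level in RM was 11.83, 11.92, 11.98 and 12.45 in Runx3Δ, against 12.35, 12.90 and 13.07 in WT. In DC it was 10.53, 10.58 and 11.37 in Runx3Δ, against 11.65 and 11.64 in WT. The genotypes overlapped in RM, through the highest Runx3Δ and the lowest WT sample. In DC they were apart with Runx3Δ lower, as in 12.6% of all rows. The log2 difference was -0.72 in RM (SE 0.23, unadjusted p = 0.0104, adjusted p = 0.474) and -0.82 in DC (SE 0.28, unadjusted p = 0.0138, adjusted p = 0.581), and in RM it lay below 0 in each litter, at -0.51, -0.98 and -1.08. Without WT RM replicate 3 the RM difference was -0.58 with an unadjusted p of 0.0521, and without either WT DC sample the DC difference stayed at -0.82 with an unadjusted p of 0.0527 and 0.0522. Ccl3 and Ccl4 were the only members of the set lower at the study's thresholds in both cell types, as were 46 of all rows (0.129%).

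Ccl5 did not share this profile. It had between 11.20 and 12.10 in the Runx3Δ RM samples, against 11.74, 10.77 and 12 in WT RM. In DC it had 10.16, 10.54 and 11.22 in Runx3Δ DC, against 10.43 and 10.92 in WT DC. The genotypes overlapped in both cell types. The log2 difference was 0.20 in RM (95% interval -0.55 to 0.94) and -0.04 in DC (-0.93 to 0.86). Its sign turned to -0.17 in RM without WT RM replicate 2.

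Among the Cxcr2 ligands, Cxcl2 was lower in Runx3Δ cells of both types. In RM it had 11.77, 11.85, 11.92 and 11.96 in Runx3Δ, against 12.14, 12.53 and 12.28 in WT. In DC it had 10.14, 10.37 and 10.96 in Runx3Δ, against 11.26 and 10.96 in WT. The RM groups were apart although the gap was small, and in DC the nearest samples of the genotypes were equal to 2 decimals. The log2 difference was -0.44 in RM (SE 0.18, unadjusted p = 0.0299, adjusted p = 0.571) and -0.62 in DC (SE 0.21, unadjusted p = 0.0136, adjusted p = 0.581). Cxcl2 and Ccl4 were the members of the set whose genotypes did not overlap, with Runx3Δ lower, in both cell types. So it was in 1.18% of all rows (3.43% in RM and 12.6% in DC taken singly).

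Cxcl3 was lower at the study's thresholds in Runx3Δ DC and not in Runx3Δ RM. Its level in DC was 6.47, 7.45 and 7.56 in Runx3Δ, against 8.36 and 8.14 in WT, whereas RM had 8.71, 8.77, 8.94 and 8.97 in Runx3Δ, against 8.78, 8.69 and 9.22 in WT. The DC genotypes were apart with Runx3Δ lower, as in 12.6% of all rows, and the RM genotypes interleaved. The log2 difference was -1.09 in DC (SE 0.28, unadjusted p = 0.00256, adjusted p = 0.415) and -0.05 in RM (SE 0.23, 95% interval -0.56 to 0.47). The difference between these differences was 1.04 (SE 0.36, 95% interval 0.23 to 1.84, unadjusted p = 0.0160), which did not pass adjustment (adjusted p = 1.00). Without Runx3Δ DC replicate 1, the lowest sample, the DC difference was -0.74. Cxcl1 had a log2 difference of -0.21 in RM (adjusted p = 0.812) and -0.48 in DC (adjusted p = 0.733), with overlap in both. The DC value was -0.20 without WT DC replicate 1 and -0.75 without WT DC replicate 2.

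Of the set, the Ccr2 ligands Ccl2 and Ccl7 were the most variable among WT RM. Ccl2 had 8.41, 9.08, 9.27 and 9.66 in Runx3Δ RM, against 8.29, 10.67 and 9.58 in WT RM, and 6.66, 6.87 and 7.19 in Runx3Δ DC, against 8.18 and 7.44 in WT DC. Ccl7, with its levels given above, showed the same order of samples in WT RM as regards replicate 1, which was the lowest for both genes. In RM the genotypes of both genes overlapped. In DC they were apart with Runx3Δ lower, as in 12.6% of all rows. The log2 difference of Ccl2 was -0.41 in RM (SE 0.47, adjusted p = 0.866) and -0.90 in DC (SE 0.56, unadjusted p = 0.135, adjusted p = 0.817, limma). That of Ccl7 was -0.59 in RM (SE 0.38, adjusted p = 0.744) and -0.99 in DC (SE 0.45, unadjusted p = 0.0513, adjusted p = 0.742). The DC value of Ccl2 was -0.53 without WT DC replicate 1 and -1.28 without WT DC replicate 2.

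The RM values of Ccl2 and Ccl7 depended on single WT RM samples. Without replicate 1 the difference in RM was -1.02 for Ccl2 (unadjusted p = 0.0219, adjusted p = 0.414) and -1.15 for Ccl7 (unadjusted p = 0.000755, adjusted p = 0.101), and 4 of the 8 chemokines in place of 2 were lower in Runx3Δ RM at the study's thresholds. Without WT RM replicate 2 instead, Ccl2 had a difference of 0.17 and Ccl7 of -0.25. Averaged over the 8 genes, replicate 1 lay 0.41 below the mean of the WT RM group, and over 26 immediate-early and dissociation stress genes it lay 0.44 below it. The part of those genes in the result was not tested.

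**Figure D3:**
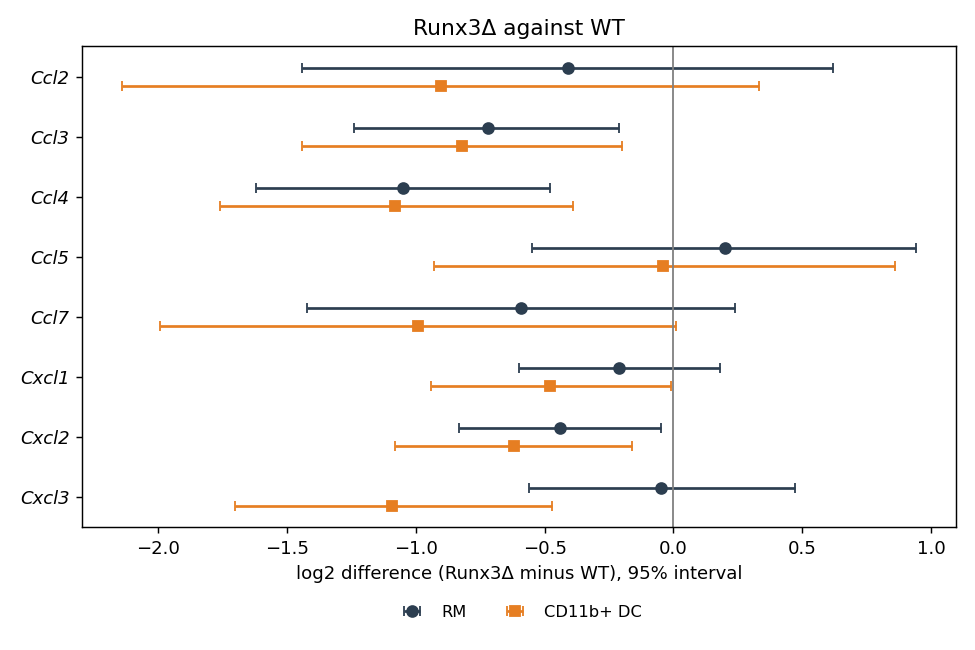
Log2 difference between genotypes (x axis, Runx3Δ minus WT) for each chemokine gene (y axis), with its 95% interval, in RM (circles) and CD11b+ DC (squares). All points except Ccl5 in RM, at 0.20, lie left of 0, and Ccl4 is at -1.05 in RM and -1.08 in DC.

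The order of the 4 group means was shared by 7 of the 8 genes, with Runx3Δ DC the lowest, then WT DC, then Runx3Δ RM, and WT RM the highest. Ccl5 departed from it, with Runx3Δ RM the highest group and overlap between all neighbours. In those 7 genes Runx3Δ RM overlapped neither DC group, and WT RM did not overlap WT DC (RM were higher without overlap in 9.32% of all rows in Runx3Δ and 16.1% in WT mice). Runx3Δ RM and WT RM, the highest neighbours, were apart for Ccl4 and Cxcl2 and overlapped for the other 5. Runx3Δ DC and WT DC, the lowest, overlapped for Cxcl1 of the 7. Over all rows, Runx3Δ was lower without overlap in 3.43% in RM and 12.6% in DC.

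Whether the genotype difference differed between RM and DC was tested for each gene as the RM difference minus the DC difference. None of the 8 passed adjustment (0 of all rows did), and at an unadjusted p under 0.05 there was only Cxcl3, against 3.91% of all rows. The 95% interval ran from -0.34 to 0.87 for Cxcl1, the narrowest of the other 7, and from -1.12 to 2.10 for Ccl2, the widest. The mean of the RM and DC differences, a comparison added after the values in each cell type were seen, was -1.06 for Ccl4 (SE 0.20, 95% interval -1.51 to -0.61, unadjusted p = 0.000284, adjusted p = 0.0958). It was -0.77 for Ccl3 (adjusted p = 0.166), -0.53 for Cxcl2 (adjusted p = 0.196) and -0.79 for Ccl7 (adjusted p = 0.368). None of the 8 passed (0.0112% of all rows did, all of them higher in Runx3Δ). Ccl4 passed in 3 of 23 alternative settings, all of which tested fewer rows, with adjusted p-values of 0.0227, 0.0232 and 0.0394, and had up to 0.385 in the others. Ccl7 passed in 1 of 23, without WT RM replicate 1, at 0.0377, and had up to 0.714 in the others.

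The levels of the Runx3Δ samples were also read by the litter number of the labels. A group holds 1 sample of a litter, so within a group a litter and a single sample cannot be told apart. Litter 4 gave Runx3Δ samples only, and of the Runx3Δ samples it was the highest for 7 of 8 genes in RM and for 7 of 8 in DC. The exception was Cxcl1 in both cell types, highest in litter 1. With litter as a block in the fit of the 4 groups, the RM difference was -1.25 for Ccl4 (adjusted p = 0.0961) and -0.89 for Ccl3 (adjusted p = 0.124). None of the 8 passed in either cell type. Leaving out the Runx3Δ DC sample of litter 4 gave -1.36 for Ccl4, -1.09 for Ccl3 and -0.85 for Cxcl2 in DC.

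Most pairs of the 8 genes had a positive correlation within the groups, while Cxcl1 had weak or negative ones. After each group's mean was removed, 25 of the 28 pairs of genes had a Pearson correlation above 0 over the 12 samples, with a median of 0.48. Over all pairs of 11566 other genes, 55.6% were above 0 and the median was 0.07. Cxcl1 ranged from -0.50 with Ccl5 to 0.24 with Cxcl2. The closest pairs were Ccl3 and Ccl4 at 0.93 and Ccl2 and Ccl7 at 0.89, or 0.72 without WT RM replicate 1. Each of these pairs lies next to each other on chromosome 11 in RefSeq order, with 0 protein-coding genes between them. Cxcl1 and Cxcl2, adjacent on chromosome 5, had a correlation of only 0.24, and Cxcl2 was closer to Ccl3, at 0.78. These are descriptions over 12 samples that share litters and a normalization.

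**Figure D4:**
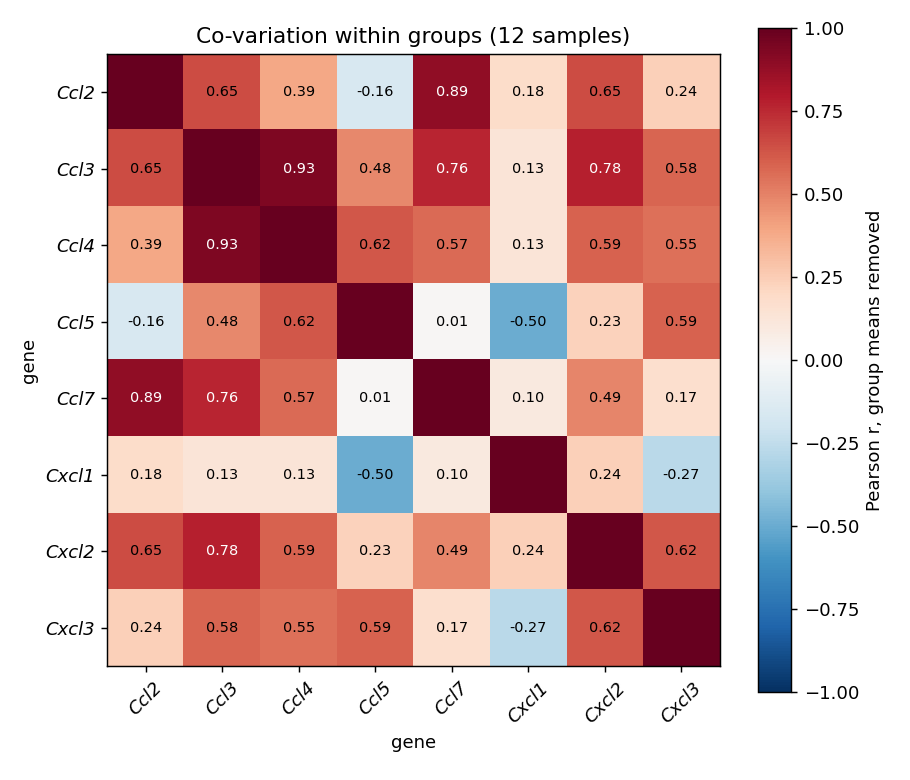
Pearson correlation (colour scale, -1 to 1) between each pair of chemokine genes (both axes) over 12 samples after each group's mean was removed. Off the diagonal, Ccl3 and Ccl4 (0.93) and Ccl2 and Ccl7 (0.89) are the darkest cells. The 3 negative pairs are Ccl5 with Ccl2 (-0.16), Ccl5 with Cxcl1 (-0.50) and Cxcl1 with Cxcl3 (-0.27).

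Among 11566 other genes, the one most like each chemokine by the same measure over 12 samples was Zswim6 for Ccl2 (r = 0.99), Polr3gl for Ccl3 (0.96), Stx2 for Ccl4 (0.95), Dnttip1 for Ccl5 (0.98), Pmaip1 for Ccl7 (0.99), Smad7 for Cxcl1 (0.94), Cep95 for Cxcl2 (0.97) and Fibp for Cxcl3 (0.95). Each is the highest of that many correlations, and no test is given. These correlations were not computed without WT RM replicate 1, the lowest WT RM sample for Ccl2 and Ccl7. For Ccl3 the third in line was Ppp1r15a (0.93), a gene of the stress list, which in RM averaged 9.15 ± 0.25 in Runx3Δ and 9.95 ± 0.30 in WT (SD, n = 4 and 3), a difference of -0.80 (adjusted p = 0.211).

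Among other chemokines the directions were mixed. Of 27 listed, 6 were higher and 1 lower in Runx3Δ RM at the study's thresholds (0.728% of all rows were higher), with a median of 0.06. In Runx3Δ DC, 3 were higher (0.633% of all rows) and 2 lower, with a median of 0.04. Ccl24, which attracts eosinophils, was the one that rose after adjustment. It averaged 9.57 ± 0.31 in Runx3Δ RM and 6.75 ± 0.44 in WT RM (SD, n = 4 and 3), a difference of 2.82 (SE 0.28, adjusted p = 0.00790) that passed in 22 of 25 alternative settings, with adjusted p-values of 0.000398 to 0.489. Cxcl9, an attractant of activated T cells, had a difference of 1.27 in RM (adjusted p = 0.212) and 1.08 in DC (adjusted p = 0.514). Ccl12, a mouse ligand of Ccr2, had one of -1.10 in RM (adjusted p = 0.214), and it was higher in WT RM than in WT DC by 3.69 (adjusted p = 4.87e-05), as Ccl7 was by 3.05.

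Genes induced with these chemokines in stimulated phagocytes gave the following values beside them. Over all rows, 43.6% of differences were below 0 in RM and 47.8% in DC, and 0.731% were lower at the study's thresholds in Runx3Δ RM and 1.5% in Runx3Δ DC. Of 22 measured genes of the NF-kappaB response, 17 were below 0 in Runx3Δ RM (median -0.10, 1 lower at the study's thresholds) and 20 in Runx3Δ DC (median -0.17, 2 lower). Tnf, an inflammatory cytokine, had a difference of -1.14 in RM (adjusted p = 0.474, or 0.0404 with litter as a block, at -1.34, and up to 0.801 in other settings) and -1.21 in DC (adjusted p = 0.634). Il6 had one of -0.88 in DC (adjusted p = 0.554). Of 18 measured type I interferon genes, 18 were below 0 in RM (median -0.75, 11 lower at the study's thresholds) and 12 in DC (median -0.42, 5 lower). Ifnb1, which encodes interferon-beta, had a log2 difference of -1.79 in RM (adjusted p = 0.148), which passed in 2 of 25 alternative settings (adjusted p 0.0284 with the brightest row per gene and 0.0298 with the mean of rows, and up to 0.723 in the others).

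Immediate-early genes, which cell dissociation can induce, mostly had differences below 0 as well, to be read against the same shares of all rows. Of 26 measured, 22 were below 0 in Runx3Δ RM (median -0.31, 3 lower at the study's thresholds) and 25 in Runx3Δ DC (median -0.35, 2 lower), and none passed adjustment. Fos had a difference of -0.63 in RM (adjusted p = 0.506). The mean level of the list ranged from 10.38 to 10.67 in Runx3Δ RM and from 10.32 to 11.12 in WT RM, and from 10.42 to 10.66 in Runx3Δ DC and from 10.77 to 11.01 in WT DC. The part of these genes in the chemokine results was not tested.

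Markers of other cells were read beside the chemokines. The mean level of 7 monocyte markers ranged from 7.95 to 8.60 in Runx3Δ RM and from 8.04 to 8.52 in WT RM, and from 7.44 to 8.15 in Runx3Δ DC and from 8.38 to 8.80 in WT DC. Of these, 3 (F13a1, Fn1 and Vcan) were lower in Runx3Δ DC at the study's thresholds (1.5% of all rows), while 3 of the 7 had differences above 0, up to 0.66. F13a1 had 6.40 ± 0.66 in Runx3Δ DC and 8.78 ± 0.56 in WT DC (SD, n = 3 and 2), a log2 difference of -2.38 (adjusted p = 0.367). In RM, 4 of the 7 were below 0 and 1 was higher at those thresholds. Of 16 granulocyte markers, 6 stayed under a log2 level of 5 in every sample, and the list's mean was 5.59 to 5.61 in Runx3Δ RM against 5.30 to 5.51 in WT RM, and 5.25 to 5.43 in Runx3Δ DC against 5.11 to 5.17 in WT DC. Of the 16 genotype differences, 13 were above 0 in RM (median 0.18, 1 higher at the study's thresholds) and 12 in DC (median 0.16). Over all rows, 43.6% of differences were below 0 in RM and 47.8% in DC. At those thresholds 0.728% of all rows were higher in Runx3Δ RM and 0.633% in Runx3Δ DC. Among the granulocyte markers, Mpo averaged 5.03 ± 0.03 in Runx3Δ RM and 4.99 ± 0.25 in WT RM (SD, n = 4 and 3). Ngp had 3.76 to 4.17 in Runx3Δ RM and 3.47 to 3.64 in WT RM. Cxcr2 and Csf3r, which neutrophils and other myeloid cells express, were the 2 of the list that were higher in Runx3Δ DC at the study's thresholds, by 1.27 (adjusted p = 0.658) and 0.81 (adjusted p = 0.476). The mean of 14 stromal and endothelial markers was 6.15 to 6.44 in Runx3Δ RM and 6.29 to 6.64 in WT RM. In DC it was 5.92 to 6.20 in Runx3Δ and 6.12 to 6.77 in WT. Of their differences, 11 of 14 were below 0 in each cell type (median -0.17 in RM and -0.44 in DC). At the study's thresholds 2 were lower in Runx3Δ DC (1.5% of all rows) and none in Runx3Δ RM.

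Markers of lymphocytes, mast cells and epithelium are to be read against all rows, of which 43.6% had differences below 0 in RM and 47.8% in DC. Of these markers, 3 (Gzma, Sdc1 and Mcpt1) were higher in Runx3Δ RM at the study's thresholds (0.728% of all rows). In Runx3Δ DC, 2 epithelial markers were higher (0.633% of all rows) and 1 T and NK cell marker was lower (1.5%). Of 15 T and NK cell markers, 13 were above 0 in Runx3Δ RM and 12 in Runx3Δ DC, and the list's mean was 6.24 to 6.87 in Runx3Δ RM against 5.84 to 6.36 in WT RM, and 6.23 to 6.35 in Runx3Δ DC against 6.06 to 6.08 in WT DC. Gzma, a granzyme of cytotoxic lymphocytes, had a difference of 1.30 in RM (adjusted p = 0.344) and 0.75 in DC (adjusted p = 0.790). Cd2, an adhesion molecule of T and NK cells, had one of -1.22 in DC (adjusted p = 0.446). Of 9 B and plasma cell markers, 6 were above 0 in each cell type, and their mean was 8.86 to 9.32 in Runx3Δ RM against 8.44 to 9.55 in WT RM, and 8.02 to 8.53 in Runx3Δ DC against 7.82 to 8.42 in WT DC. Sdc1, a surface proteoglycan of plasma cells and epithelium, averaged 9.17 ± 0.32 in Runx3Δ RM and 7.76 ± 0.32 in WT RM (SD, n = 4 and 3), a difference of 1.40 (adjusted p = 0.0847). Of 10 mast cell markers, 7 were above 0 in Runx3Δ RM and 5 in Runx3Δ DC. Among them 4 stayed under a log2 level of 5 in every sample, and the mean was 4.79 to 5.44 in Runx3Δ RM against 4.52 to 4.86 in WT RM, and 5.41 to 5.66 in Runx3Δ DC against 5.14 to 5.48 in WT DC. Mcpt1, a protease of mucosal mast cells, had a difference of 1.18 in RM (adjusted p = 0.573) and 1.25 in DC (adjusted p = 0.751). Of 12 epithelial markers, 8 were above 0 in Runx3Δ RM and 10 in Runx3Δ DC, and the mean was 5.57 to 6.28 in Runx3Δ RM against 5.62 to 6.18 in WT RM, and 5.73 to 6.23 in Runx3Δ DC against 5.55 to 5.87 in WT DC. Car1, a carbonic anhydrase of colon epithelium, averaged 8.50 ± 0.86 in Runx3Δ DC and 6.82 ± 0.19 in WT DC (SD, n = 3 and 2), a difference of 1.69 (adjusted p = 0.456). The part of these cells in the chemokine results was not tested.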

How the data were processed

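Total RNA of sorted cells was hybridized to Affymetrix arrays. The methods name a mouse exon array, whereas the platform annotation is that of a gene-level array, which was used to name the rows. The authors ran RMA with a GC correction in Partek and deposited log2 intensities. The submitters' processing notes name the mouse build mm9. The values were used as deposited. Of 35556 rows, 21789 had 1 gene symbol (21698 found in the reference table through their gene ID), 1621 had several and 12146 had none, of which 6617 lead the table. A gene with several rows was represented by the brightest.

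One linear model over the 4 groups was fitted in R 4.3.3 (limma 3.58.1), with Benjamini-Hochberg adjustment over all rows, and statmod 1.5.0 gave the random litter block. The fit was tested on simulated data. Promoters were searched and figures drawn with Python 3.11.15 and matplotlib 3.10.9. The study used one-way ANOVA, a fold change of 1.5 and a p of 0.05. The members and gene lists were chosen with earlier results of these data known. Besides the 8 chemokines, all receptors, up to 3 genes per list with the smallest p between genotypes, the 2 cell type markers and, for each chemokine, the 3 genes with the highest correlation were eligible to be named. Runx3 was added to check the labels.

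The labels give each sample's litter, which pairs samples across groups. Deviations from the group means had a median correlation of 0.0958 (-0.0412 to 0.358) between the 13 pairs of samples of 1 litter, and of -0.0347 (-0.257 to 0.203) between the 40 pairs of different litters. The main fit has no block, as in the methods. Each sample is a pool, and p-values measure the spread between pools. The methods do not say whether the RM and DC samples of a litter came from the same mice, and the main fit does not pair them. The alternatives were litter as a fixed or random block, the 2 groups alone, the methods' ANOVA on 2 or 4 groups, median centring, quantile normalization, a filter on dim rows, array weights, a robust prior with an intensity trend, the brightest row or the mean of rows for each gene, the leading unnamed rows left out, and each sample left out.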

Additional observations from a re-analysis of the deposited data

How the results depend on the processing

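Of 81 values of single genes checked under up to 25 alternatives, 12 of them leaving out 1 sample, 69 kept their sign throughout. None of the 8 chemokines passed adjustment between genotypes in RM, in DC or in the difference between them under any alternative run. The mean of both differences gave 1 (Ccl4) with the brightest row per gene, with the mean of rows and without the leading unnamed rows, and 0 to 1 when a sample was left out. Leaving out 1 sample, the chemokines at the study's thresholds numbered 1 to 4 in RM (4 without WT RM replicate 1, 1 without WT RM replicate 3), 2 to 6 in DC (2 without WT DC replicate 1 or Runx3Δ DC replicate 1) and 2 to 5 in the mean (5 without WT RM replicate 1 or Runx3Δ DC replicate 3). The methods' ANOVA on 2 groups gave 1 in DC. Between RM and DC of WT mice, the adjusted count was 2 to 6 with a sample left out, 3 in the 2 groups alone and 0 by that ANOVA. With litter as a fixed replicate block the counts in RM and DC were 2 and 4, and beyond Ccl2 (RM against DC in WT) and Tnf (RM) it changed no call. Signs turned as follows. In RM with a sample left out, Ccl2 lay between -1.02 and 0.17, Ccl5 between -0.17 and 0.45 and Cxcl3 between -0.15 and 0.11, and Cxcl3 0.01 after quantile normalization. In DC, Ccl5 lay between -0.33 and 0.21 with a sample left out and at 0.15 with array weights, and Ccr1 at 0.04 with the litter block. The RM genotype difference minus the DC genotype difference, with a sample left out, lay between -0.12 and 1.07 for Ccl2, -0.12 and 0.37 for Ccl3, -0.15 and 0.31 for Ccl4, -0.14 and 0.52 for Ccl5, -0.16 and 0.74 for Ccl7, and -0.01 and 0.54 for Cxcl1. It turned to -0.04 for Ccl2 with the litter block, to -0.15 for Ccl3 and -0.29 for Ccl4 with array weights, and to -0.01 for Ccl4 after median centring. The mean for Ccl5 lay between -0.10 and 0.20 with a sample left out and turned to -0.13 with the litter block. The cause was not tested. The RM genotype difference minus the DC one, and the mean of both, could not be fitted in 2 groups alone. Omitting a WT DC sample leaves 1 array there, assumed to vary like the other groups.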
